A study of Mus musculus with 4 samples.

Results

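The genes described here are the Mef2 transcription factors Mef2a, Mef2c and Mef2d and the class IIa histone deacetylases Hdac4, Hdac5, Hdac7 and Hdac9. Their 5-hydroxymethylcytosine (5hmC) peaks were the entries of both deposited peak lists whose gene symbol, as given by the authors, was 1 of these 7 names. This gave 41 of the 56695 peaks of the day 20 list and 0 of the 1050 peaks of the day 0 list. The cells were ATDC5, a mouse chondrogenic line, grown as chondrocytes for 19 or 20 days with insulin, transferrin and selenite added to the medium (2 libraries), or as chondroprogenitors at day 0 without that supplement (2 libraries). Ascorbic acid was in the medium of both stages, and fragments with 5hmC were enriched with a capture kit before sequencing. Each list came from merged samples of its stage and held peaks past a 10-fold enrichment, with positions (GRCm38) and gene symbols and no height or fold per peak. No replicate spread exists for any value, so no difference between stages carries a test, and read depth is unknown. As 1 cell line, ATDC5 stands for chondrogenesis in culture and not for growth plate tissue.

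TET enzymes make 5hmC by oxidising methylated cytosines, mostly at CG dinucleotides. MEF2 proteins are MADS-box transcription factors that bind an A/T-rich DNA element. Class IIa deacetylases bind MEF2 through their N-terminal part and hold its target genes silent. When kinases phosphorylate these deacetylases, 14-3-3 proteins bind them and keep them in the cytoplasm, which frees MEF2. In mouse growth plate cartilage Mef2c is required for chondrocyte hypertrophy and Hdac4 restrains it, and parathyroid hormone-related protein (PTHrP) signals to keep Hdac4 in the nucleus.

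The RefSeq table of GRCm38.p6 lists 13 transcription starts for the 7 genes. A day 20 peak lay within 1 kb of 4 of them, 1 each in Mef2a, Mef2c, Hdac7 and Hdac9. The promoter windows of these 4 starts, from 250 bases before to 50 after and taken from RefSeq (GRCm38.p6), are shown because they are the members' starts nearest to a peak. They run 5′ to 3′ along the gene, and capitals mark the CG dinucleotides where 5hmC can form.
Mef2a, chr7:67372809-67373108, minus strand: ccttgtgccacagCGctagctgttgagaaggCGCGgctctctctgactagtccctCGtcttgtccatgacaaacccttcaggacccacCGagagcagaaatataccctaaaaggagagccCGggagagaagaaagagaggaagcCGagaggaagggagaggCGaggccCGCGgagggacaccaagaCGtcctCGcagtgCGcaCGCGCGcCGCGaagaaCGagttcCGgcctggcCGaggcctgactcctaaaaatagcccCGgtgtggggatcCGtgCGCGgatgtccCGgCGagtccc
Mef2c, chr13:83573357-83573656, plus strand: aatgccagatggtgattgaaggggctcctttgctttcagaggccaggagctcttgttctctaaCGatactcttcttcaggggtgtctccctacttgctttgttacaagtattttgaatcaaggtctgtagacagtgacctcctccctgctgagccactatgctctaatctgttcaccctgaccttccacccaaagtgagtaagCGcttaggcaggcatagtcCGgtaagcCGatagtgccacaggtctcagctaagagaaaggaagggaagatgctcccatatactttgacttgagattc
Hdac7, chr15:97814814-97815113, minus strand: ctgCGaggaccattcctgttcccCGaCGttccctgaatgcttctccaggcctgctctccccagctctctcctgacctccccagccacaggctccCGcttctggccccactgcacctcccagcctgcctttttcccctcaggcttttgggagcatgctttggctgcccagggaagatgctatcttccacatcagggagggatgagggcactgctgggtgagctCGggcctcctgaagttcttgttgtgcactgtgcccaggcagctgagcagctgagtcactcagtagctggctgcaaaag
Hdac9, chr12:34528840-34529139, minus strand: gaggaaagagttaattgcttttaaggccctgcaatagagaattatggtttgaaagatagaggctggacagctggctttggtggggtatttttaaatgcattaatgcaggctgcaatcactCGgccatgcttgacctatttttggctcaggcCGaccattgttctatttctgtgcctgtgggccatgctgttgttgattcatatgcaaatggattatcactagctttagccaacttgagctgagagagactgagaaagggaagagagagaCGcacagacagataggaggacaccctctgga

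The 4 windows differed in their number of CG dinucleotides, with 27 in Mef2a, 4 in Mef2c, 5 in Hdac7 and 3 in Hdac9, against a median of 7 over all 32851 windows of the table. The Mef2c, Hdac7 and Hdac9 starts shown lie inside the gene, downstream of its first listed start. The nearby peaks lay outside the windows. The Mef2a peak lay upstream, 672 bp from the start. The Mef2c, Hdac7 and Hdac9 peaks lay downstream, 373, 408 and 331 bp from their starts. Over the 13 member windows, 0 were overlapped by a day 20 peak, which allows a share of up to 23.1%, and 3.74% of the windows of all protein-coding genes were overlapped. A peak within 1 kb was found at 4 of 13 member starts, and at 12.1% of the 21263 starts of protein-coding genes. Starts of the same gene are not independent, and no test was made.

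Among the member windows, a peak lay within 1 kb of 3 of the 6 with at most 7 CG dinucleotides and of 1 of the 7 with more. Over all protein-coding genes the order was the opposite, with 8.49% (Wilson 95% interval 7.91 to 9.12%) of windows at or under that median and 14.3% (13.7 to 14.9%) of windows above it. The member counts are small, and windows of 1 gene are not independent and can overlap. No difference from all genes is therefore read from them. The CG-rich windows of Hdac4, Mef2d and Hdac5, with 32, 24 and 18 CG dinucleotides, had their nearest day 20 peak 2806, 2267 and 10124 bp away. Wilson and Poisson intervals cover counting error only.

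An A/T-rich run found in MEF2 binding elements was looked for in the same windows, on both strands. The letters TAAAAATA, or TATTTTTA read on the other strand, stood in 3 of the 13 member windows, 1 each in Mef2a, Hdac5 and Hdac9. They occurred in 893 of all 32851 windows (2.72%). The letters were chosen after the windows had been read, and a match is a description of the sequence and no evidence of binding. The stretches around the 3 matches are shown to place them against the starts, with the matched letters in capitals.
Mef2a, chr7:67372842-67372869, minus strand: gcctgactccTAAAAATAgccccggtgt
Hdac5, chr11:102230174-102230201, minus strand: ggtctgagccTATTTTTAgctcggggtc
Hdac9, chr12:34529037-34529064, minus strand: tttggtggggTATTTTTAaatgcattaa

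In Mef2a the match spans the start itself, from base -1 to base 7 counted from the start, with no base 0. In Hdac5 it runs from -19 to -12, and at the internal Hdac9 start from -165 to -158. Of these 3 starts, those of Mef2a and Hdac9 had a day 20 peak within 1 kb and that of Hdac5 did not.

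All 7 genes carried at least 1 day 20 peak by the authors' symbol, and none carried a day 0 peak. Across the 21900 protein-coding genes of the table, 43.8% had a day 20 peak (43.2 to 44.5%) and 1.81% a day 0 peak (1.64 to 1.99%). The absence of day 0 peaks from 7 genes is therefore the usual case, and 0 of 7 allows a share of up to 42.9%. Longer genes more often carried a peak. Protein-coding genes were put into 10 length classes of equal size. In the longest class, which holds Mef2a, Mef2c, Hdac4 and Hdac9, 79.6% had a day 20 peak (77.8 to 81.2%). In the class of Mef2d and Hdac5 the share was 54.7%, and in that of Hdac7 it was 63.7%. The day 20 list is 54.0 times as long as the day 0 list, and neither gives a level of 5hmC. The 2 lists also differ in width, with a median of 133 bp (quartiles 117 and 167 bp) at day 0 and 590 bp at day 20. The narrowest day 20 peak measured 175 bp.

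Day 20 peaks with a member's symbol numbered 12 in Hdac4, 10 in Mef2c, 7 in Mef2a, 4 in Hdac9, 3 each in Mef2d and Hdac7 and 2 in Hdac5. The 3 Mef2 genes held 20 and the 4 Hdac genes 21. The exact Poisson interval of the total of 41 was 29.4 to 55.6. Neighbours in this order have overlapping intervals, from 6.20 to 21.0 for Hdac4, 4.80 to 18.4 for Mef2c, 2.81 to 14.4 for Mef2a and 0.242 to 7.22 for Hdac5. The median gene of the longest length class had 5 such peaks (quartiles 1 and 10), which Hdac4, Mef2c and Mef2a exceeded and Hdac9 did not reach. At least as many peaks as in the member were found in 21.1% of genes of its length class for Hdac4, 27.8% for Mef2c, 40.3% for Mef2a and 57.1% for Hdac9. The shares were 13.9% for Mef2d, 29.6% for Hdac5 and 24.3% for Hdac7. A member with so many peaks was thus not rare for its length, the lowest share being 13.9%.

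Counting by position instead of symbol moved Hdac9 most. A total of 54 day 20 peaks (40.6 to 70.5) overlapped the bodies of the 7 genes, of which 39 carried the member's symbol and 15 carried no symbol. Hdac9 held 17 peaks by position against 4 by symbol, and Hdac4 held 14 against 12. By position 40.5% of protein-coding genes had a day 20 peak and 1.76% a day 0 peak, and again all 7 members had the first and none the second. The other 2 peaks with a member's symbol lay outside the gene, 4151 bp upstream of Mef2d and 4761 bp upstream of Hdac7. By position, 11.9% of the genes of its length class had at least as many peaks as Hdac9, and 17.5% at least as many as Hdac4.

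**Figure D1:**
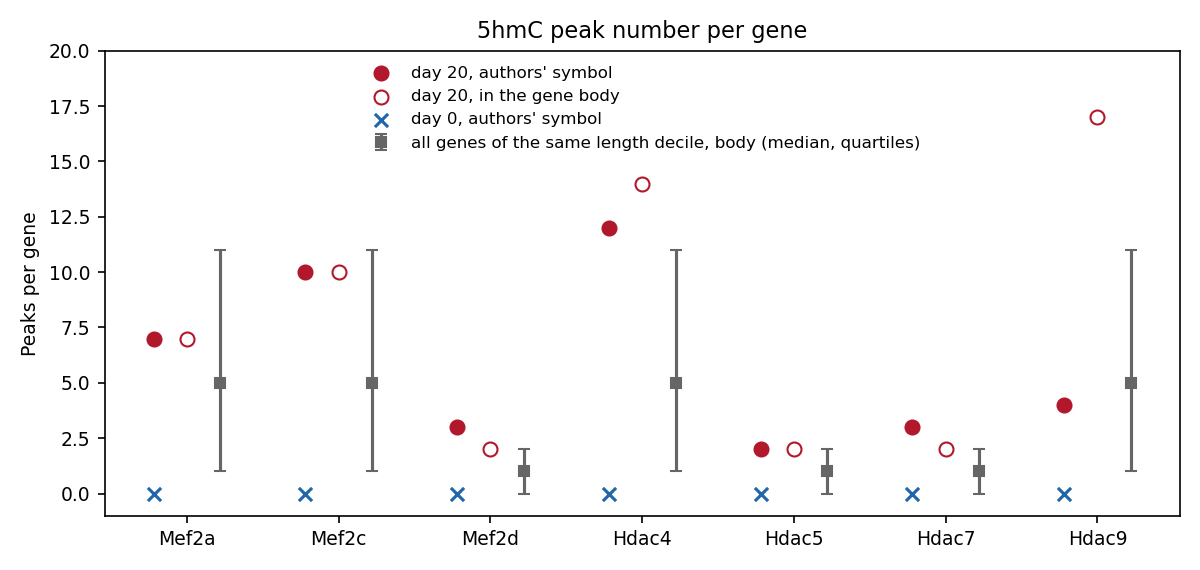
Number of 5hmC peaks per gene (vertical axis) for the 7 genes. Filled circles are day 20 peaks by the authors' symbol, open circles day 20 peaks overlapping the gene body, squares the median and quartiles by position of all protein-coding genes of the same length class, and crosses day 0 peaks. Hdac9 has 4 by symbol and 17 by position, and the crosses are all at 0.

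Per 100 kb of gene, the 7 genes together had 2.63 peaks by symbol (1.88 to 3.56), and all protein-coding genes together had 3.07. By position the values were 3.46 (2.60 to 4.51) for the 7 genes and 3.0 for all. Hdac9 weighs most on these values, with 870 of the 1561 kb that the 7 genes span. Without it the other 6 genes had 37 peaks, or 5.35 per 100 kb (3.77 to 7.37), by either count. The equal totals hide shifts. Hdac4 had 14 by position against 12 by symbol, and Mef2d and Hdac7 each had 2 against 3. Hdac9 had the lowest density of the 7 by both counts, so leaving it out can only raise the value. The interval treats peaks of the same gene as independent, which they are not. No difference from all genes is therefore read from the 5.35. By symbol Mef2d had the highest density, 9.95 per 100 kb, followed by Mef2c with 6.13, Hdac5 with 5.81, Hdac7 with 5.79, Mef2a with 4.82, Hdac4 with 4.50 and Hdac9 with 0.460. Of the 7 members, 6 lay above the median density of their length class, the exception being Hdac9, with 0.460 against 2.39. The same 6 did so by position, where Hdac9 had 1.96 and its class 2.64. The class medians include genes without a peak, while every member had at least 1. The members were also chosen with earlier results of these data known, so the tally is a description only.

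Mef2a encodes a MEF2 factor that is broadly expressed. It spans 145 kb on the minus strand of chromosome 7 (67231163 to 67376456). Its 7 peaks fell into 2 groups at the ends of the gene. At the upstream end, 5 peaks lay within 17.7 kb of the gene boundary, the outermost of them at chr7:67373530-67374393, on the upstream side of the start shown above and 863 bp wide. The other 4 of this group were narrower, with 324, 517, 474 and 333 bp going downstream. At the far end, 2 peaks of 581 and 503 bp lay about 139 and 142 kb from the upstream boundary. Between the groups, 121 kb held no peak.

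That gap made up 83.0% of Mef2a. Among the 220 other protein-coding genes with 7 day 20 peaks by position, the longest peak-free stretch had a median of 30.2% of the gene (quartiles 24.9 and 36.4%) and a highest value of 81.7%. None of those 220 genes reached the value of Mef2a, as a description of this 1 list. This measure was chosen after the positions had been seen. In Mef2c the longest stretch was 25% against a median of 25.3% in 98 other genes with 10 peaks, in Hdac4 16.7% against 20.4% in 57 genes with 14, and in Hdac9 15.9% against 19.2% in 29 genes with 17. Mef2d reached 56.6%, Hdac7 41.7% and Hdac5 34.9%, against a median of 59.7% in 1759 other genes with 2 peaks.

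**Figure D2:**
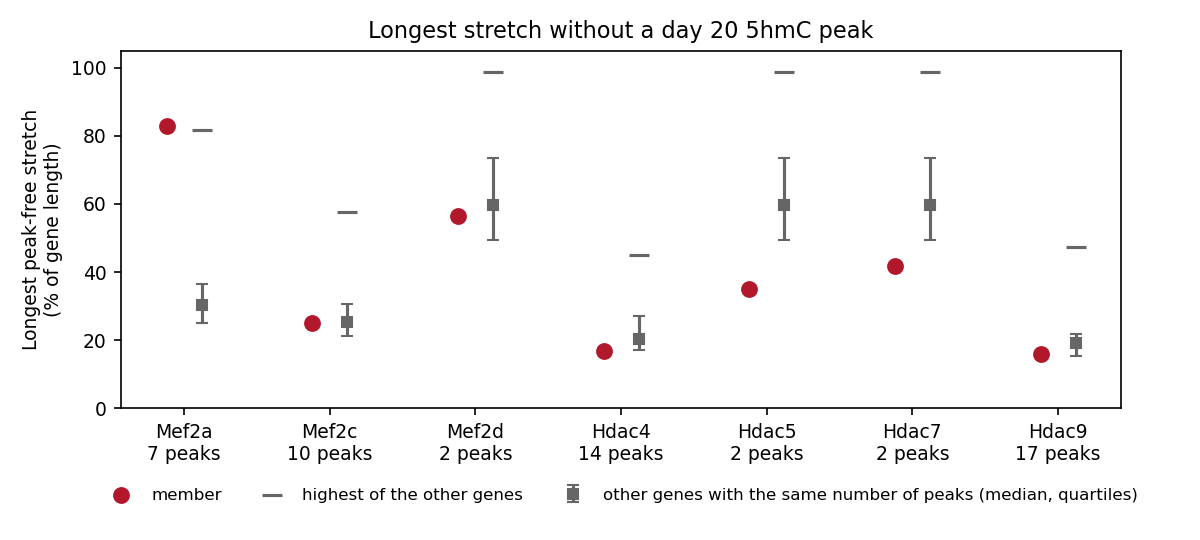
Longest stretch of each gene without a day 20 peak, as a percentage of gene length (vertical axis). Circles are the 7 genes, squares with bars the median and quartiles of other protein-coding genes with the same number of peaks by position, and dashes the highest of those genes. Mef2a, at 83.0%, lies above the highest other gene, at 81.7%.

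Mef2c, the member that mouse genetics ties most directly to chondrocyte hypertrophy, spans 163 kb on the plus strand of chromosome 13 (83504017 to 83667079). Its first 40.8 kb, which contain 2 of its 3 listed starts, held no peak. The 10 peaks spread over the rest, from a peak 41.2 kb into the gene to one at 148 kb. They measured 660, 377, 505, 234, 665, 413, 474, 682, 541 and 470 bp from the upstream end on. The narrowest, chr13:83573980-83574214, is the peak 373 bp downstream of the internal start shown above, and only 0.217% of the day 20 list was narrower. Of the 10 peaks, 5 also lay over long noncoding RNA genes that overlap Mef2c, 3 over Gm52043 and 2 over Gm52044. Of the 100 kb on either side, the upstream one held 3 peaks and the downstream one 0.

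Mef2d, a MEF2 factor expressed in many tissues, is a short gene of 30.2 kb on the plus strand of chromosome 3 (88141941 to 88172091). A peak of 514 bp lay 2267 bp downstream of its only listed start and a peak of 667 bp lay 20.6 kb into the gene. The third, of 462 bp, lay 4582 bp upstream of the start. The peaks on either side of the start left the CG-rich promoter window between them without a peak.

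Hdac4, the class IIa deacetylase that restrains hypertrophy, spans 267 kb on the minus strand of chromosome 1 (91928779 to 92195702). Its 12 peaks by symbol began 50.9 kb into the gene and reached to 244 kb, with widths from 379 to 884 bp and a median of 586.5 bp. The densest stretch was in the middle, where 5 peaks lay between 96.1 and 134 kb and 3 more between 138 and 165 kb. The pair centred at 96.1 and 97.4 kb lay less than 1 kb apart. Around the upstream end, 4 further day 20 peaks carried no symbol. Of these, chr1:92174648-92175632 lay 4709 bp downstream of the only listed start, and chr1:92183147-92183738 lay 2806 bp upstream of it, still inside the gene as annotated. The other 2 lay 770 and 2058 bp beyond the gene boundary, and the first of them was 1061 bp wide. All 12 entries with the symbol carried the same transcript, NM_207225.

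Hdac5, a class IIa deacetylase regulated by calcium-dependent and protein kinase D signalling, is a gene of 34.4 kb on the minus strand of chromosome 11 (102195747 to 102230172). It had 2 peaks, of 876 and 761 bp, 10.6 and 22.0 kb into the gene. Both were wider than 73.2% of the list or more.

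Hdac7, best known for its roles in blood vessel integrity and thymocyte selection, spans 51.8 kb on the minus strand of chromosome 15 (97792661 to 97844502). It carried the widest peak of the 7 genes, chr15:97811800-97814455, which spans 2655 bp downstream of the internal start shown above. Only 86 of the 56695 day 20 peaks were wider. A second peak of 1374 bp, wider than 96.0% of the list, lay 7.74 kb into the gene, over the overlapping noncoding RNA gene Gm33636. The third, of 542 bp, lay upstream of the gene within Gm33690. Hdac7 also had the largest share of its length under peaks, 7.77%, against 0.902% in Hdac9 and 2.47 to 4.76% in the other 5 genes. Its surroundings were the richest, with 9 peaks in the 100 kb upstream and 12 in the 100 kb downstream, or 10.5 per 100 kb. The day 0 peak nearest to any member was 205 kb from Hdac7, so no member had one within 100 kb.

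Hdac9, which in mouse muscle acts as a MEF2 corepressor, is the longest member, with 870 kb on the minus strand of chromosome 12 (34047580 to 34917095). The 4 peaks that carried its symbol were near the middle of the gene, by its internal listed start. They were 1175 bp upstream and 331, 11418 and 55776 bp downstream of it, and the authors gave the same transcript, NM_024124, for each. The 13 peaks without a symbol were spread over the rest of the gene, 6 of them upstream and 7 downstream of those 4. The peak nearest to the outer start was 42080 bp away. All 17 peaks were narrow, from 312 to 571 bp with a median of 463 bp, each under the median of the day 20 list. Of the peaks with a symbol in the longest length class, 49.9% were wider than that median. That share leaves out peaks without a symbol, such as 13 of these 17. Of the 703 protein-coding genes with at least 10 day 20 peaks by position, 4 had every peak narrower than the median, and Hdac9 was the one with the most peaks. The other 3 were Tcf12, Sh3kbp1 and Spag16. By its median width Hdac9 was less unusual, since 59 of the 703 genes (8.39%), Hdac9 included, had a median at or under 463 bp. These counts were made after the widths had been seen.

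**Figure D3:**
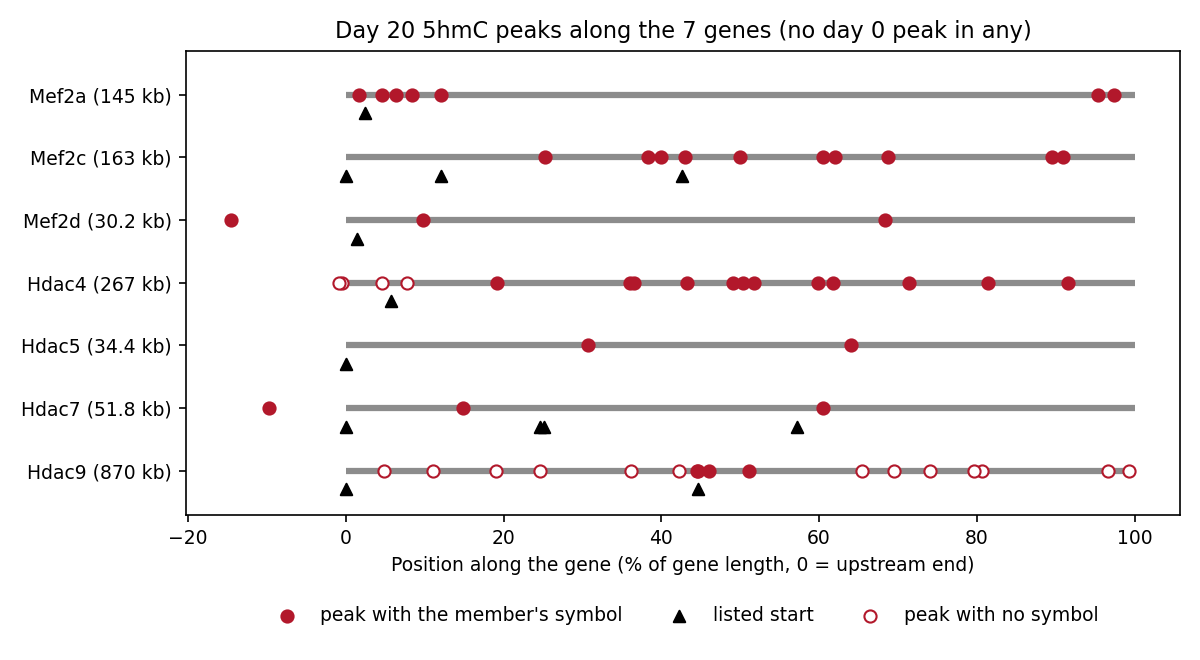
Day 20 peaks along the 7 genes, drawn from the upstream to the downstream end as a percentage of gene length (horizontal axis). Filled circles carry the member's symbol, open circles carry none, and triangles mark listed starts. Mef2a is empty between its ends. In Hdac9 the filled circles lie near the middle, from 1175 bp upstream to 55776 bp downstream of the internal start.

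Over the 41 peaks by symbol the median width was 524 bp (95% interval 475 to 610 bp, quartiles 462 and 667 bp). The median of all day 20 peaks was 590 bp (quartiles 457 and 782.5 bp), which lies within the interval of the members. That interval comes from the ranks of the 41 widths and treats the peaks as independent, which peaks of 1 gene are not. It describes this list only, and a difference in width was not tested. Of the 41, 15 were wider and 26 narrower than the median of the list. Medians by gene ran from 416 bp in Hdac9 through 489.5 in Mef2c, 503 in Mef2a, 514 in Mef2d, 586.5 in Hdac4 and 818.5 in Hdac5 to 1374 bp in Hdac7. Widths overlapped between genes. Of the 15 peaks wider than the median of the list, 6 were in Hdac4, 3 in Mef2c, 2 each in Hdac5 and Hdac7 and 1 each in Mef2a and Mef2d. The narrowest peaks were in Mef2c, with 234 bp, and Mef2a, with 324 and 333 bp. Across all genes the median width differed little by gene length, with 606 bp in the class of Mef2d and Hdac5, 610 bp in that of Hdac7 and 590 bp in the longest.

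**Figure D4:**
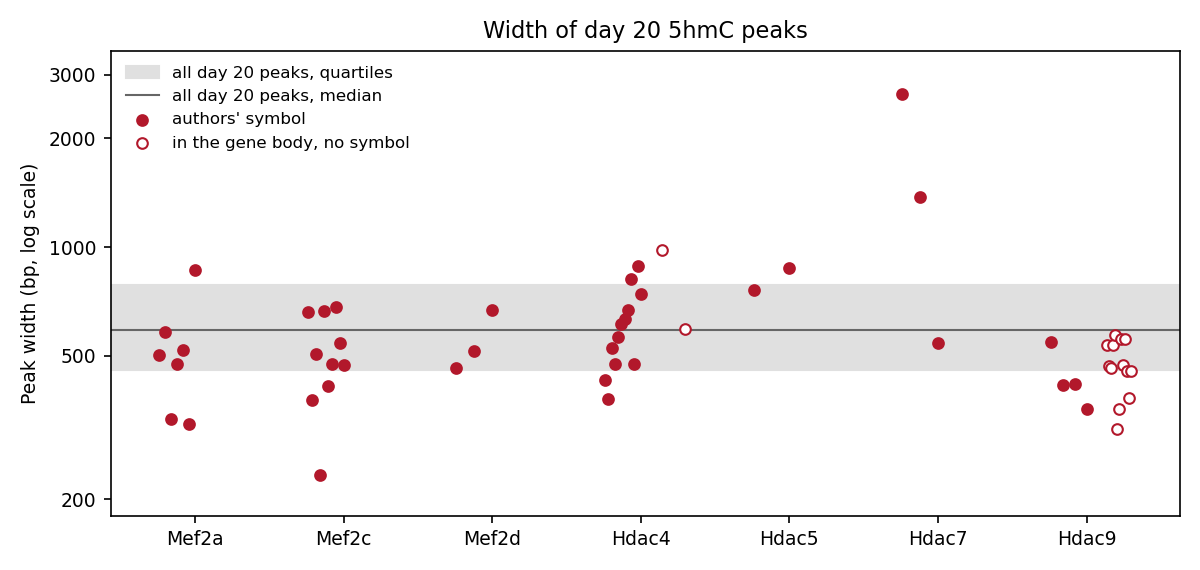
Width of each day 20 peak (vertical axis, bp, log scale) by gene. Filled circles carry the member's symbol, open circles lie in the gene body without a symbol, and the line and band are the median and quartiles of the whole day 20 list. Both Hdac5 peaks and 2 of the Hdac7 peaks lie above the median of 590 bp, and all Hdac9 peaks lie below it.

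Measured from the upstream end, 39 of the 41 peaks lay inside the gene. Cut into 3 equal parts, the genes held 10 of these in the upstream part, 20 in the middle and 9 in the downstream part. The middle part had 51.3% (36.2 to 66.1%). The share was 32.7% (32.1 to 33.3%) of the 22695 peaks by symbol inside protein-coding genes with a listed strand. Counted by position, with the 15 peaks without a symbol, the middle part had 23 of 54 peaks, or 42.6% (30.3 to 55.8%). The share was 31.7% (31.2 to 32.3%) of 24948 peaks in protein-coding genes with a listed strand. The interval of the members by position includes that value of 31.7%, so the higher middle share rests on the count by symbol. By symbol the upstream part had 25.6% (14.6 to 41.1%), against 35.2%. Of the 20 middle peaks by symbol 8 were in Hdac4, 6 in Mef2c and 4 in Hdac9, and peaks of 1 gene are not independent. Within 1 kb of a listed start lay 4 of the 41 peaks (9.76%, 3.86 to 22.5%), and 6.36% of the whole list (6.16 to 6.56%). The interval of the members includes the value of the whole list.

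Genes whose pattern was most like that of Hdac4 were Dym, with 12 peaks in 268 kb, and Mllt3, with 12 in 263 kb. For Mef2c they were Vav2, with 10 peaks in 166 kb, and Plekhm3, with 10 in 168 kb. Likeness was the sum of the absolute log2 ratios of gene length and day 20 peak number over the 2 lists, among genes with no day 0 peak, and it was 0.00725, 0.0187, 0.0214 and 0.0405 for these 4.

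Genes of the pathway around the members, with relatives of the members and hypertrophy genes, were counted in 6 lists with 68 genes. By symbol, 51 of the 68 had a day 20 peak and 5 a day 0 peak, and the median gene had 2 day 20 peaks. Across all protein-coding genes the shares were 43.8% and 1.81%. They were 54.7% and 1.64% in the length class that holds the lists' median length of 27.4 kb. In the longest class they were 79.6% and 7.90%. Of the other Mef2 and histone deacetylase genes, 4 of 8 had a day 20 peak. These were Hdac8 with 4 and Hdac6 with 3, both on the X chromosome, Hdac11 with 2 and Hdac1 with 1. Mef2b, Hdac2, Hdac3 and Hdac10 had none. The median length of this list was 18.0 kb, shorter than any member.

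Kinases and phosphatases that act on class IIa deacetylases had a day 20 peak in 16 of 20 genes. The median length of this list was 76.6 kb, and 74.7% of genes in the length class of that median had a day 20 peak. Camk1d, a calcium and calmodulin-dependent kinase, had 35 peaks in 421 kb. Sik3, a salt-inducible kinase that phosphorylates Hdac4 and is needed for hypertrophy in mice, had 25 in 211 kb. Ppp3ca, the catalytic subunit of the phosphatase calcineurin, had 16 in 268 kb. Camk1d, Ppp3ca and Mark2 each had 1 day 0 peak. Prkd1 had no day 20 peak in 308 kb, and Prkd2, Mark3 and Ppp2ca had none either. By position Sik3 had 11.4 peaks per 100 kb, against 5.24 in Hdac4 and 6.13 in Mef2c.

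The 14-3-3 proteins, which hold phosphorylated deacetylases in the cytoplasm, had a day 20 peak in 6 of 7 genes. Ywhag and Ywhah had 3 each and Ywhab had 2, and Sfn had none. Ywhag also had a day 0 peak by symbol. PTHrP signalling genes had one in 10 of 11, with 18 in Gnaq, a G protein alpha subunit, 5 in Crtc3, a coactivator of CREB, and 3 in the adenylyl cyclase gene Adcy6. Pthlh and its receptor gene Pth1r had 2 each. Corepressor genes had one in 5 of 6. Tbl1xr1, a subunit of a nuclear corepressor complex, had 7 and Cbx5, a heterochromatin protein, had 5, while Ncor1 had none in 142 kb.

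Hypertrophy genes and their regulators had a day 20 peak in 10 of 16 genes. Runx2, a driver of hypertrophy, had 19 peaks by symbol and 28 by position, Zfp521, a zinc finger repressor of Runx2 activity, had 14, and Runx3 had 7. Sox9, which holds the chondrocyte fate, had 3 and was the only gene of this list with a day 0 peak. Genes expressed in hypertrophic or mineralising cartilage were mixed. By symbol, the alkaline phosphatase gene Alpl had 6 peaks, the angiogenic factor gene Vegfa 3, the osteopontin gene Spp1 2, and the bone sialoprotein gene Ibsp and the pannexin gene Panx3 1 each. By position Alpl had 6, Vegfa, Spp1 and Panx3 had 1 each and Ibsp had 0. The type X collagen gene Col10a1, the collagenase gene Mmp13, the ligand gene Ihh and the phosphatase gene Phospho1 had none by symbol, and Col10a1 had 1 by position. The shares of these lists are to be read against all protein-coding genes, with 43.8% for day 20 and 1.81% for day 0. They are also to be read against gene length, from a median of 9.79 kb in the hypertrophy list to 139 kb among corepressors. In the length class of the list's median, the day 20 share was 33.0% for the hypertrophy list. It was 44.1% for PTHrP signalling and for the other Mef2 and deacetylase genes. For 14-3-3 proteins it was 54.7%, for kinases and phosphatases 74.7% and for corepressors 79.6%. Lengths vary within a list, and no test was made.

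**Figure D5:**
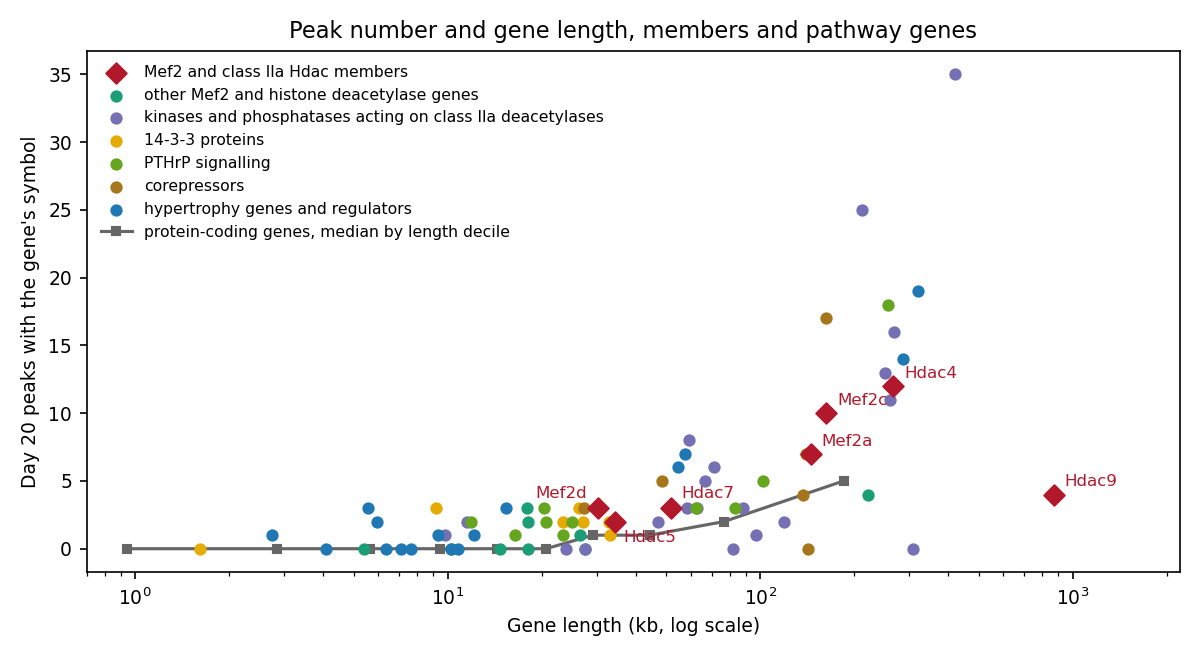
Day 20 peaks by the authors' symbol (vertical axis) against gene length (horizontal axis, kb, log scale). Diamonds are the 7 genes, circles the 68 genes of the 6 lists and squares the median of all protein-coding genes in each length class. Hdac9, the longest gene drawn at 870 kb, has 4 peaks, and Camk1d and Sik3 have the highest points, at 35 and 25.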

How the data were processed

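The files were 2 lists of 5hmC peaks, 1 per stage, each from merged samples and cut by the authors at an enrichment of 10-fold, per the file headers. What that fold compares with, how symbols were given to peaks, the read depth and whether the day 19 library is part of the day 20 list are not given in the sources used here. Per the submitters' processing notes, the tools and builds were FastQC, cutadapt, BWA, MACS 1.4.2, GRCm38 and mm10, with no statement of what each was used for. The deposited values were positions, symbols and transcript accessions, with no other score.

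Of 56698 day 20 entries, 3 had no readable position and were left out. Width was end minus start. Members were matched by symbol, and the 21900 protein-coding genes of the RefSeq table (GRCm38.p6) by transcript accession or, failing that, symbol. That table gave gene ends, and RefSeq promoter windows gave starts, strand and sequence. Exons and the sequences of peaks were not analysed here. An overlap of 1 bp or more made a peak shared. P-values were not computed, because each stage had a single list and neither peaks nor genes are replicates.

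The members and gene lists were chosen with earlier results of these data known. Named genes were the 7 members, up to 3 genes of each list with the most day 20 peaks, list genes with a day 0 peak, and the 2 genes most like each of the 2 members with the most peaks. Other genes, such as list genes without a peak, were named after their values were seen. The value of 1 list gene that the rule names is not reported here. Counting by symbol and position, and overlap, were tested on simulated data. Alternatives covered assignment by position, merging, width, gene set and the sharing rule. Python 3.11.15, numpy 2.4.6, pandas 2.3.3, scipy 1.17.1 and matplotlib 3.10.9 were used.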

Additional observations from a re-analysis of the deposited data

How the results depend on the processing

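No paired analysis was possible because each list merges its samples, and for the same reason no replicate could be left out. With no score per peak, a stricter threshold of the authors could not be tried, and peak width was used in its place. Between 6 and 7 of the 7 members had a day 20 peak under the 4 alternatives run for that count. Day 0 peaks of members, and member peaks shared with day 0, stayed at 0 under each alternative run for them. These alternatives could not have given another count, because the day 0 peak nearest to any member lay 205 kb away. Keeping day 20 peaks at least as wide as the median of the list left 15 of the 41 member peaks, all 15 of them inside the gene, and 0.961 per 100 kb. Hdac9 then had 0 peaks by symbol, Mef2a 1, Mef2c 3, Mef2d 1 and Hdac4 6. The share of all genes with a day 20 peak, 43.8% by symbol, was 40.5% by position, 50.8% with 5 kb added on both sides, 28.1% with the wider peaks, 45.7% on autosomes and 20.9% for genes of any type. Hdac9 had 17 peaks by position, with or without the 5 kb. Of 31 alternatives for the main results 23 kept the value within the limits set, and of 28 for single genes 21 did. The 23 include the alternatives on day 0 peaks and on sharing with day 0, whose outcome was fixed. For counts that limit was 1.5 times the main count. The share of member peaks in the middle part of the gene, 51.3% by symbol, was 42.6% by position, a count added after the data had been seen.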
